A study of Homo sapiens with 4 samples.

Results

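The genes described here are 10 transcriptional repressors, SNAI1, SNAI2, GFI1, GFI1B, INSM1, OVOL1, ZEB1, ZEB2, TWIST1 and TWIST2, whose transcripts were measured in HepG2, a human hepatoma cell line. They are all the probe sets whose platform annotation names 1 of these genes alone, 21 probe sets of 54675 on the array and 10 genes of 19775. No probe set named a member together with another gene. The knockdown arrays (LSD1-KD, 2 arrays) came from cells transfected against LSD1 with siRNA-1 (1 array) or siRNA-2 (1 array), and the control arrays (2 arrays) came from cells transfected with an siRNA against GL3. All cells grew in medium with 25 mM glucose and 10% serum, were transfected at about 50% confluence and were harvested after 4 days. The LSD1-KD arrays differ in siRNA, so in the comparison of both with control their spread includes the difference between the siRNAs. The labels do not say that the control arrays came from separate cultures. Their spread, which enters every p-value, may therefore be technical.

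LSD1, encoded by KDM1A, is a histone demethylase that works in a complex with the CoREST scaffold proteins and histone deacetylases. Zinc finger repressors of the Snail, GFI, INSM and OVO families carry a short N-terminal stretch called the SNAG domain. In Snail, GFI1 and INSM1 it resembles the tail of histone H3 and is bound in the active site of LSD1, which brings the complex to target genes. ZEB and Twist proteins have no SNAG domain. They act with the Snail proteins in the epithelial-mesenchymal transition, in which cells lose E-cadherin and tight junctions and gain mesenchymal proteins, and ZEB proteins are best known for recruiting the corepressor CtBP.

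Values are RMA values taken to be on a log2 scale, and as deposited they have a median of 0 over the 4 arrays in each probe set, so differences between arrays of a probe set can be read and levels cannot. A difference below is the mean of the LSD1-KD arrays minus the mean of the control arrays unless 1 siRNA is named. The numeric precision left after centring still sorts probe sets by brightness, and by it 3 repressor probe sets had uncentred values of at least 8, 9 had values between 4 and 8, and 9 were dim (below 4). By chance about 1 in 8 is sorted 1 class too bright, and the class does not say whether a transcript is present. All 8 measured hepatocyte markers of the 10 listed lay at 8 or above, whereas 4 of 7 fibroblast markers did, 1 of 4 blood markers, 1 of 4 endothelial markers and 0 of 2 neuroendocrine markers.

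KDM1A itself was lower on both LSD1-KD arrays, with values of -1.55 (siRNA-1) and -1.17 (siRNA-2), against 1.23 and 1.17 on the control arrays. The difference of -2.56 ± 0.16 (SE, n = 2 arrays per group) missed the threshold in limma (adjusted p = 0.0850 over all genes), which 1 gene of 19775 passed. With siRNA-2 alone KDM1A passed (-2.37, adjusted p = 0.0173), and with siRNA-1 alone its larger difference did not (-2.75, adjusted p = 0.0935). The arrays also differed in technical ways along the same split. Hybridization spike-ins averaged 0.61 and 0.65 on the LSD1-KD arrays and -0.69 and -0.61 on the control arrays. The 5' minus 3' value of ACTB was -0.26 and -0.38 on the LSD1-KD arrays and 0.34 and 0.23 on the control arrays. The SD over probe sets was 0.197 for the siRNA-1 array and 0.384 for the siRNA-2 array, against 0.164 and 0.154 on the control arrays. The part of these differences in any result below was not tested.

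None of the 10 repressor genes passed the comparison of LSD1-KD with control cells in limma over all genes (0 of 10, adjusted p from 0.499 to 0.999, background 0.00506% of genes). At an unadjusted p under 0.05 there were also 0 of 10, where 14.5% of all genes had one. The median difference was -0.05 over the 10 genes and -0.00 over all genes, and 9 of the 10 had a difference smaller than 0.3 in size, as had 73.1% of all genes. Both LSD1-KD arrays lay above both control arrays for 2 genes (SNAI2 and ZEB1) and below them for 3 (INSM1, ZEB2 and TWIST1), against 23.5% and 25.2% of all genes. For 3 genes (GFI1, GFI1B and OVOL1) the siRNAs lay on opposite sides of both controls, against 22.0% of all genes. The half-width of the 95% interval ran from 0.27 for SNAI2 to 1.56 for TWIST2, so a shift of that size could not be told from 0 for the gene in question. Without the siRNA-1 array, 2 of the 10 passed (GFI1 and TWIST2), which are the calls of siRNA-2 alone.

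**Figure D1:**
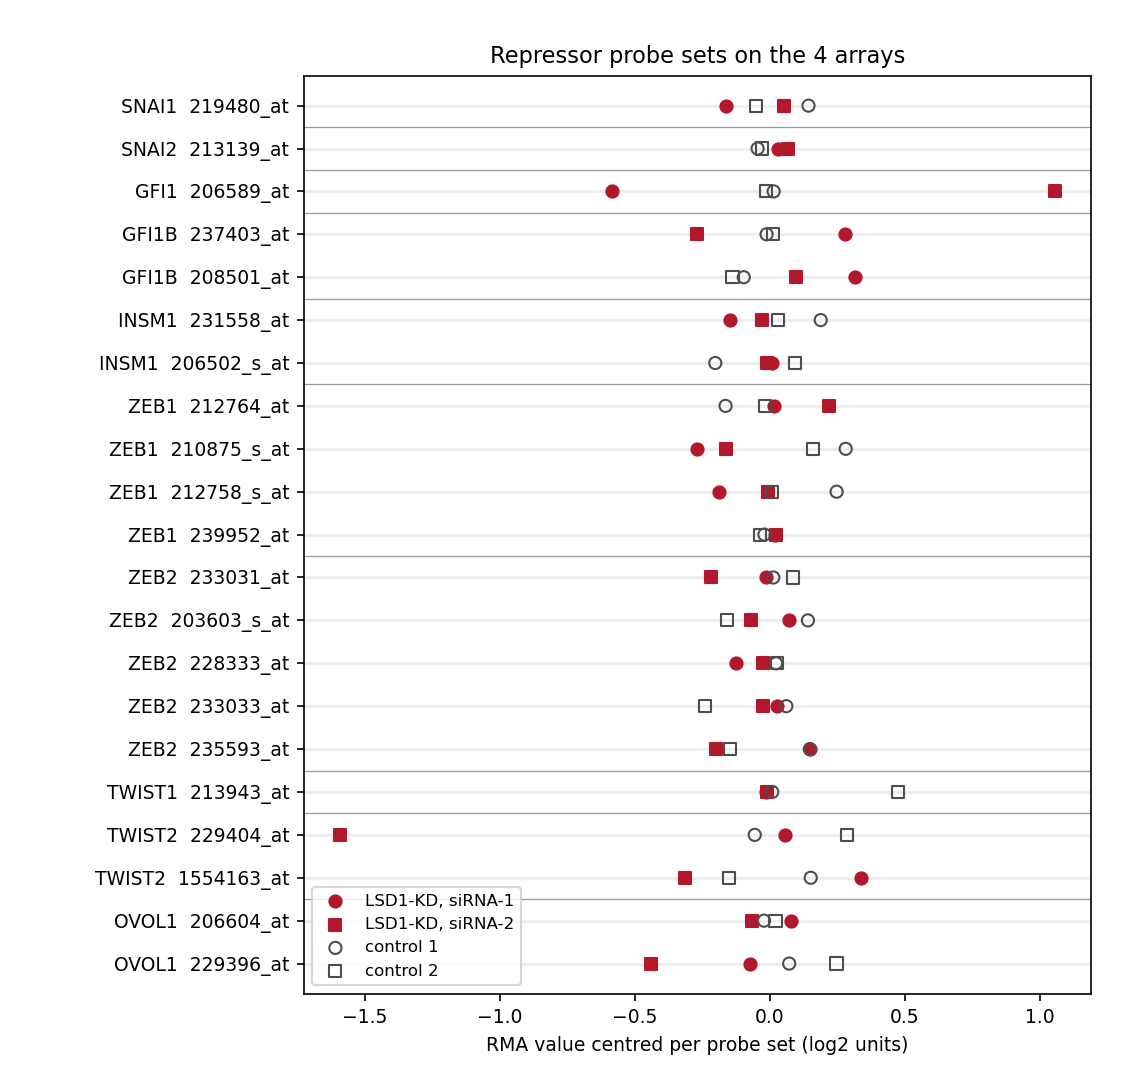
Centred RMA values (log2 units, horizontal axis) of the 21 repressor probe sets (rows, grouped by gene), with filled red symbols for the LSD1-KD arrays (circle siRNA-1, square siRNA-2) and open symbols for the control arrays (circle control 1, square control 2). Most points lie near 0, while GFI1 with siRNA-2 stands at 1.06 and TWIST2 229404_at with siRNA-2 at -1.59.

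SNAI1, or Snail, and SNAI2, or Slug, are the SNAG-domain repressors of E-cadherin. SNAI1 had values of -0.16 and 0.05 on the LSD1-KD arrays, against 0.14 and -0.05 on the control arrays. The groups overlapped at a difference of -0.10 ± 0.14 (SE, n = 2 arrays per group), with a 95% interval from -0.47 to 0.27. SNAI2 had values of 0.03 and 0.07 on the LSD1-KD arrays, against -0.04 and -0.03 on the control arrays. Both LSD1-KD arrays were higher by a small margin, with a difference of 0.09 ± 0.10 and an interval from -0.18 to 0.35, and the probe set is dim (below 4). Neither gene passed with siRNA-1 or siRNA-2 alone.

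GFI1 and GFI1B are SNAG-domain repressors best known from blood cell formation, and each was read differently with the siRNAs. GFI1 had 1 probe set, with values of -0.58 (siRNA-1) and 1.06 (siRNA-2) on the LSD1-KD arrays, against 0.01 and -0.01 on the control arrays. The siRNAs thus lay on opposite sides of controls that were nearly equal, and the difference of both from control was 0.24 ± 0.57 (SE, n = 2 arrays per group). In a limma fit with each siRNA as its own group, whose spread comes from the 2 control arrays alone, GFI1 rose with siRNA-2 by 1.06 ± 0.07 (2.08-fold, adjusted p = 0.0177). It read -0.58 ± 0.07 with siRNA-1 and did not pass there, and neither did KDM1A, the knocked-down gene. The difference between the siRNAs was 1.64 ± 0.08 (adjusted p = 0.0454). That call describes 2 arrays, and with every probe set as a feature it ended (adjusted p = 0.0686).

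GFI1B had values of 0.28 and -0.27 on the LSD1-KD arrays, against -0.01 and 0.01 on the control arrays (237403_at). The order of the siRNAs was the reverse of that for GFI1, and the difference was 0.00 ± 0.21. The difference between the siRNAs was -0.55 ± 0.08 and did not pass (limma adjusted p = 0.0609). The second, dim probe set 208501_at read 0.32 and 0.10 on the LSD1-KD arrays, against -0.10 and -0.14 on the control arrays. It was higher on both LSD1-KD arrays, so the probe sets of GFI1B disagree for siRNA-2. GFI1 and GFI1B proteins bind DNA at the core AATC and are known to act on their own promoters, so upstream stretches are shown with that core in capitals, which on the other strand reads GATT. The 3 stretches of GFI1 hold 1, 0 and 1 cores and the 2 of GFI1B hold 2 and 4. Of all 35116 stretches of this length 64.8% hold at least 1 core and 7.15% hold at least 4. Shown are the GFI1 stretch before its outermost start and the GFI1B stretch with most cores.
GFI1, chr1:92486926-92487175, minus strand, GRCh38.p14, RefSeq: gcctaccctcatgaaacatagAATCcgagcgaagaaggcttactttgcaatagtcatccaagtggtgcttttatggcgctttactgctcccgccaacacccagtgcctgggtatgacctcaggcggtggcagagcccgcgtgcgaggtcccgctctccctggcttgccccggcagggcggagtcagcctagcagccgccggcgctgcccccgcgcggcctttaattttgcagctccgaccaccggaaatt
GFI1B, chr9:132978444-132978693, plus strand, GRCh38.p14, RefSeq: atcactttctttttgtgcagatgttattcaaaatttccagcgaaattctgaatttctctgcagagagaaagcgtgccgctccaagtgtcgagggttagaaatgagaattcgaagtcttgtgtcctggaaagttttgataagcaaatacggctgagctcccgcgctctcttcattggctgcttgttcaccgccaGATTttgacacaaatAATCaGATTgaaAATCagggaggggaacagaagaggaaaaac

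INSM1, a SNAG-domain repressor of neuroendocrine cells, had values of -0.15 and -0.03 on the LSD1-KD arrays, against 0.19 and 0.03 on the control arrays (231558_at). Both LSD1-KD arrays were lower, with a difference of -0.20 ± 0.12 (SE, n = 2 arrays per group) and an interval from -0.52 to 0.12. The dim probe set 206502_s_at overlapped between groups (0.05), and the mean of both was -0.07. OVOL1, a SNAG-type zinc finger protein of epithelia that represses ZEB1 and so opposes the transition, had values of 0.08 and -0.07 on the LSD1-KD arrays, against -0.02 and 0.02 on the control arrays. The difference was 0.01 ± 0.11, with an interval from -0.29 to 0.30. A dim OVOL1 probe set, 229396_at, read -0.07 and -0.44 on the LSD1-KD arrays, against 0.07 and 0.25 on the control arrays. Its difference of -0.42 was not shared by the brighter probe set and did not pass in a fit over all probe sets (limma adjusted p = 0.383). In that fit 0 of 21 repressor probe sets passed, 1 had an unadjusted p under 0.05, and over all probe sets 0 passed (0.0%) and 13.9% had an unadjusted p under 0.05.

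ZEB1 and ZEB2 are zinc finger and homeodomain repressors of epithelial genes, read by 4 and 5 probe sets. ZEB1 had values of 0.02 and 0.22 on the LSD1-KD arrays, against -0.16 and -0.02 on the control arrays (212764_at), a difference of 0.21 ± 0.13 with an interval from -0.14 to 0.56. A second ZEB1 probe set, 210875_s_at, read -0.27 and -0.16 on the LSD1-KD arrays, against 0.28 and 0.16 on the control arrays. It was lower on both LSD1-KD arrays, at -0.44, and was the repressor probe set with the lowest unadjusted p (0.0152, limma adjusted p = 0.278 over all probe sets). The probe set 212758_s_at was also lower on both (-0.23), and the dim 239952_at was higher on both by 0.05. The 4 ZEB1 probe sets therefore did not overlap between groups but split, 2 higher and 2 lower (21.6% and 25.3% of all probe sets). Their mean turned the direction of the gene to -0.10.

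ZEB2 had values of -0.01 and -0.22 on the LSD1-KD arrays, against 0.01 and 0.09 on the control arrays (233031_at), a difference of -0.17 ± 0.12 with an interval from -0.50 to 0.16. Over its 5 probe sets the difference ran from -0.17 to 0.09. Of these 2 were lower on both LSD1-KD arrays and 3 overlapped, and the mean of all was -0.04. The antisense gene ZEB1-AS1, beside ZEB1 and chosen after its values were seen, had values of -0.00 and 1.35 on the LSD1-KD arrays, against -0.35 and 0.00 on the control arrays. It rose with siRNA-2 by 1.52 (limma adjusted p = 0.0315), while ZEB1 did not pass with siRNA-2 (0.31, adjusted p = 0.128). OVOL1-AS1, beside OVOL1, had a difference of -0.09.

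TWIST1 and TWIST2 are basic helix-loop-helix proteins that bind E-box DNA with partner E-proteins. TWIST1 had values of -0.01 and -0.01 on the LSD1-KD arrays, against 0.01 and 0.47 on the control arrays. Control 1 lay just above the LSD1-KD arrays and control 2 stood high, giving a difference of -0.25 ± 0.19 (SE, n = 2 arrays per group). TWIST2 had values of 0.06 (siRNA-1) and -1.59 (siRNA-2) on the LSD1-KD arrays, against -0.06 and 0.29 on the control arrays (229404_at). Only the siRNA-2 array stood below the controls. With siRNA-2, TWIST2 fell by 1.71 ± 0.19 on the log2 scale, or 3.27-fold (limma adjusted p = 0.0267). It read -0.06 ± 0.19 with siRNA-1 and did not pass there (adjusted p = 0.861). The difference between the siRNAs, -1.65 ± 0.21, did not pass (adjusted p = 0.0572). The dim TWIST2 probe set 1554163_at read 0.34 and -0.31 on the LSD1-KD arrays, against 0.15 and -0.15 on the control arrays, and its siRNA-2 difference of -0.31 did not pass in the fit over all probe sets (adjusted p = 0.297). With the mean of both probe sets the LSD1-KD minus control difference of TWIST2 was -0.44, against -0.88 with the brighter one.

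Over the single siRNAs, 0 of 10 repressor genes passed with siRNA-1, where 0 of all genes passed (0.0%; 2 of 10 and 26.5% had an unadjusted p under 0.05 in limma). With siRNA-2, 2 of 10 passed, 1 higher and 1 lower, against a background of 22.8% of all genes (4 of 10 and 40.5% had an unadjusted p under 0.05). With siRNA-2 both also stood 2-fold or more away from the controls, as did 6.06% of genes, and 0 of 10 did with siRNA-1, against 1.35%. Between the siRNAs 1 of 10 passed, against 5.19% of all genes, of which 2.95% were higher and 2.24% lower with siRNA-2 (3 of 10 and 33.3% had an unadjusted p under 0.05). The share of repressors that passed with siRNA-2 was near the background. Counted by probe set, 4 of 21 were higher and 7 lower on both LSD1-KD arrays (21.6% and 25.3% of all probe sets), 4 had the siRNAs on opposite sides (20.7%), and 0 for siRNA-1 and 2 for siRNA-2 stood 2-fold or more away from the controls (0.954% and 5.02%).

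**Figure D2:**
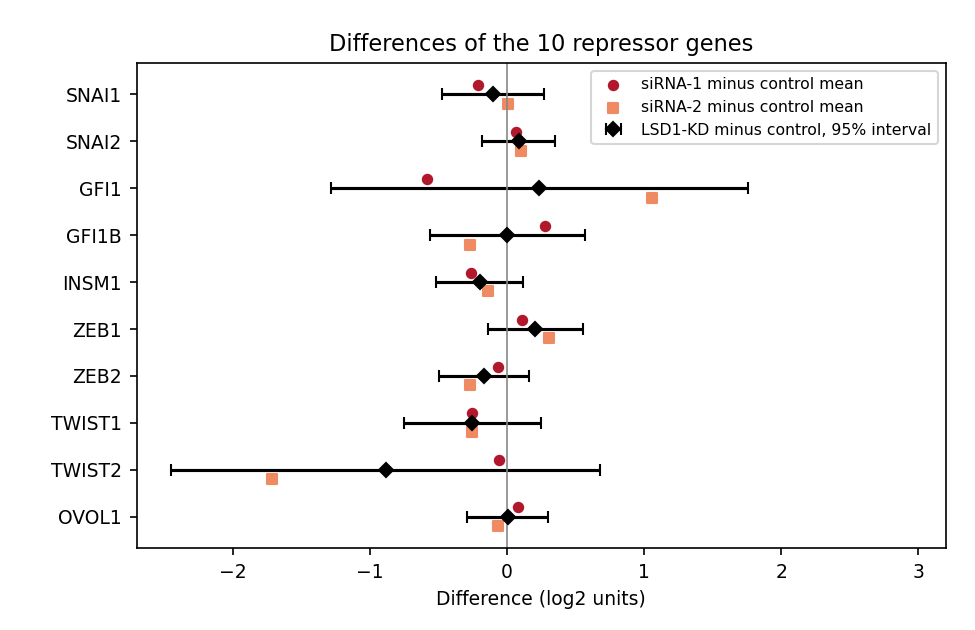
Differences in log2 units (horizontal axis) for the 10 repressor genes (rows), each read by 1 probe set. Black diamonds with bars give LSD1-KD minus control with its 95% interval, red circles siRNA-1 and orange squares siRNA-2 minus the control mean. Every interval crosses 0, and the siRNAs part most for GFI1 (-0.58 and 1.06) and TWIST2 (-0.06 and -1.71).

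**Figure D3:**
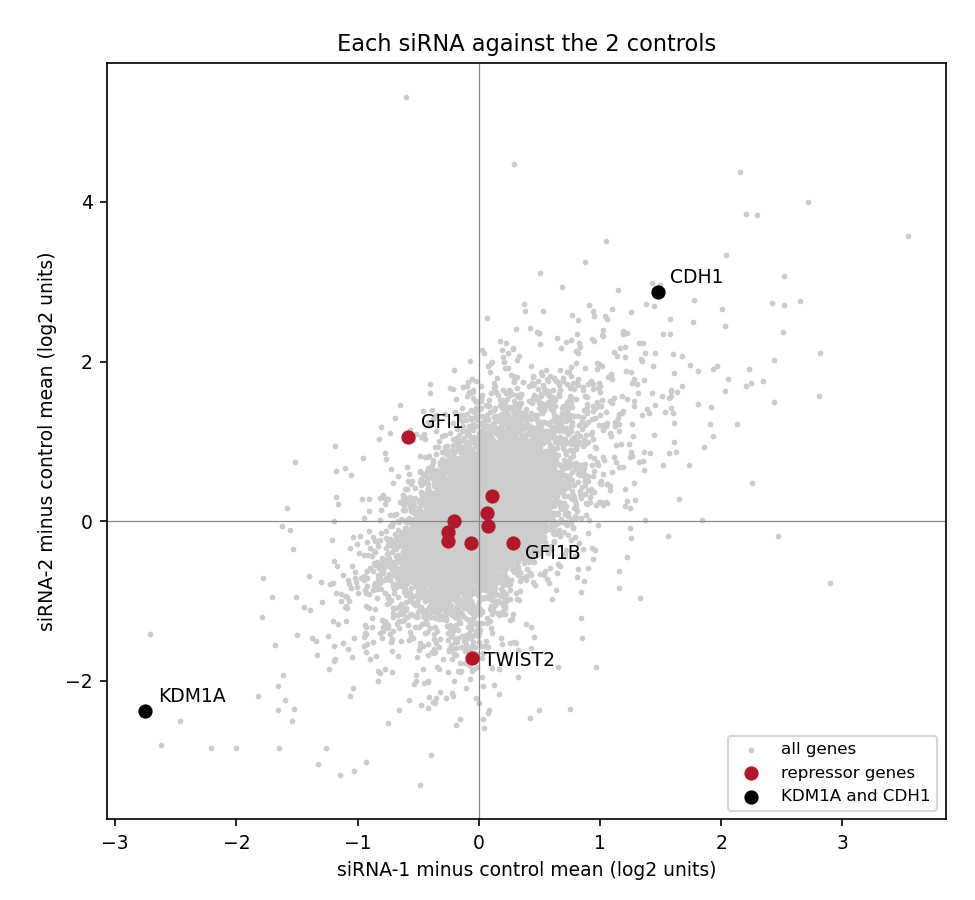
Difference from the control mean in log2 units with siRNA-1 (horizontal axis) against siRNA-2 (vertical axis), with 19775 genes in grey, the 10 repressor genes in red and KDM1A and CDH1 in black. Both axes share the control arrays, so the slope of the cloud is not read. Most repressors lie near the origin, with GFI1 above and TWIST2 below the cluster.

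Genes that Snail, ZEB or Twist proteins are known to repress did not pass the test as single genes, while 13 of the 27 measured stood higher on both LSD1-KD arrays. Of 27 measured epithelial genes 0 passed over all genes in limma, and 7 had an unadjusted p under 0.05, against 14.5% of all genes. On both LSD1-KD arrays 13 were higher and 4 lower, against 23.5% and 25.2% of all genes. The median difference was 0.20 (0.13 with siRNA-1, 0.23 with siRNA-2), beside -0.00 over all genes. With siRNA-2 alone 9 rose and 1 fell, against 13.0% and 9.83% of all genes. The mean of all probe sets of each gene lowered the median to 0.08. The 8 hepatocyte markers moved the same way, with a median difference of 0.42 and means of 0.12 and 0.35 on the LSD1-KD arrays, against -0.10 and -0.20 on the control arrays. Their part in the epithelial values was not tested.

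CDH1, the gene of E-cadherin, had values of 0.74 and 2.13 on the LSD1-KD arrays, against -0.74 and -0.75 on the control arrays. Both LSD1-KD arrays were far above controls that were nearly equal, yet the difference of 2.18 ± 0.48 (SE, n = 2 arrays per group) did not pass (limma adjusted p = 0.241). CDH1 rose with siRNA-2 by 2.88 (adjusted p = 0.0173) and read 1.48 with siRNA-1 (adjusted p = 0.0935). A dim CDH1 probe set stood at 0.06 for siRNA-1 and 0.34 for siRNA-2, and the mean of both probe sets gave a difference of 1.19. EPCAM, an epithelial adhesion molecule, had values of 0.47 and 0.81 on the LSD1-KD arrays, against -0.47 and -0.48 on the control arrays, a difference of 1.11 ± 0.15 (adjusted p = 0.178). PKP2, a desmosomal plakophilin, had a difference of 0.99 ± 0.23 and MARVELD3, a tight junction protein, of 0.65 ± 0.11, and neither passed. EPCAM (1.285), PKP2 (1.30) and MARVELD3 (0.72) are all among the epithelial genes that rose with siRNA-2. With siRNA-1 they read 0.94, 0.69 and 0.57. The probe sets of PKP2 and MARVELD3 differ in size. The mean of probe sets was 0.56 for PKP2, whose other probe set overlapped between groups at 0.13. It was 1.70 for MARVELD3, whose other probe sets read 2.62 and 1.83.

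Snail and ZEB proteins bind the E-box CAGGTG, which on the other strand reads CACCTG. It was searched on both strands in the 250 bases upstream of annotated starts in the RefSeq promoter table. The box was present in 2 of 14 stretches of 5 matched repressor genes (14.3%). It was in 12 of 24 stretches of 16 matched epithelial genes (50.0%), where 17.5% of all 35116 stretches hold it. Stretches of 1 gene can overlap and share boxes, as those of MUC1 do. By gene, the box was in 1 of 5 repressor genes, 10 of 16 epithelial genes and 5635 of 27305 genes with a stretch. The epithelial genes were listed as known targets of these repressors, so their share is not independent of that choice. Among epithelial genes, 5 of 10 with a box were higher on both LSD1-KD arrays, as were 3 of 6 matched genes without one. The other 11 measured epithelial genes, CDH1, EPCAM, PKP2 and MARVELD3 among them, had no entry in the promoter table and were not searched. The stretches below show the boxes in capitals. They were chosen as the ZEB1 stretch with most boxes, the epithelial gene with most boxes, and OCLN, the gene of occludin, taken after its values were seen, which rose with siRNA-2 (1.29, limma adjusted p = 0.0173) and was at -0.03 for siRNA-1. CRB3, a Crumbs polarity protein, had a difference of 0.20 and did not pass (adjusted p = 0.533).
ZEB1, chr10:31318966-31319215, plus strand, GRCh38.p14, RefSeq: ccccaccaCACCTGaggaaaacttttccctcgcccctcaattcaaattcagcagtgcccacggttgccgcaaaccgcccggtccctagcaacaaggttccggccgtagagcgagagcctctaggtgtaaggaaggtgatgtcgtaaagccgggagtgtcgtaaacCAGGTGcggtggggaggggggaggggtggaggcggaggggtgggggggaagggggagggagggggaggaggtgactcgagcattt
CRB3, chr19:6464021-6464270, plus strand, GRCh38.p14, RefSeq: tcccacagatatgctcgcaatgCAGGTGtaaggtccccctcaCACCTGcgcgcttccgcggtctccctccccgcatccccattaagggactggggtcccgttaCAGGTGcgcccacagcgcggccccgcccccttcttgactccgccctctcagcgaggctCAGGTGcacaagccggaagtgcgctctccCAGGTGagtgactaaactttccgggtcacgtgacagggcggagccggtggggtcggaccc
OCLN, chr5:69492297-69492546, plus strand, GRCh38.p14, RefSeq: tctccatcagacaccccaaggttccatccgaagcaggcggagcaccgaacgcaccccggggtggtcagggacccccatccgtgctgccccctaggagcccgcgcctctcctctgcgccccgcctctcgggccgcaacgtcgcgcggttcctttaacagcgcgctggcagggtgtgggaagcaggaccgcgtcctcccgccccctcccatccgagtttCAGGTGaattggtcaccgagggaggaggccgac

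**Figure D4:**
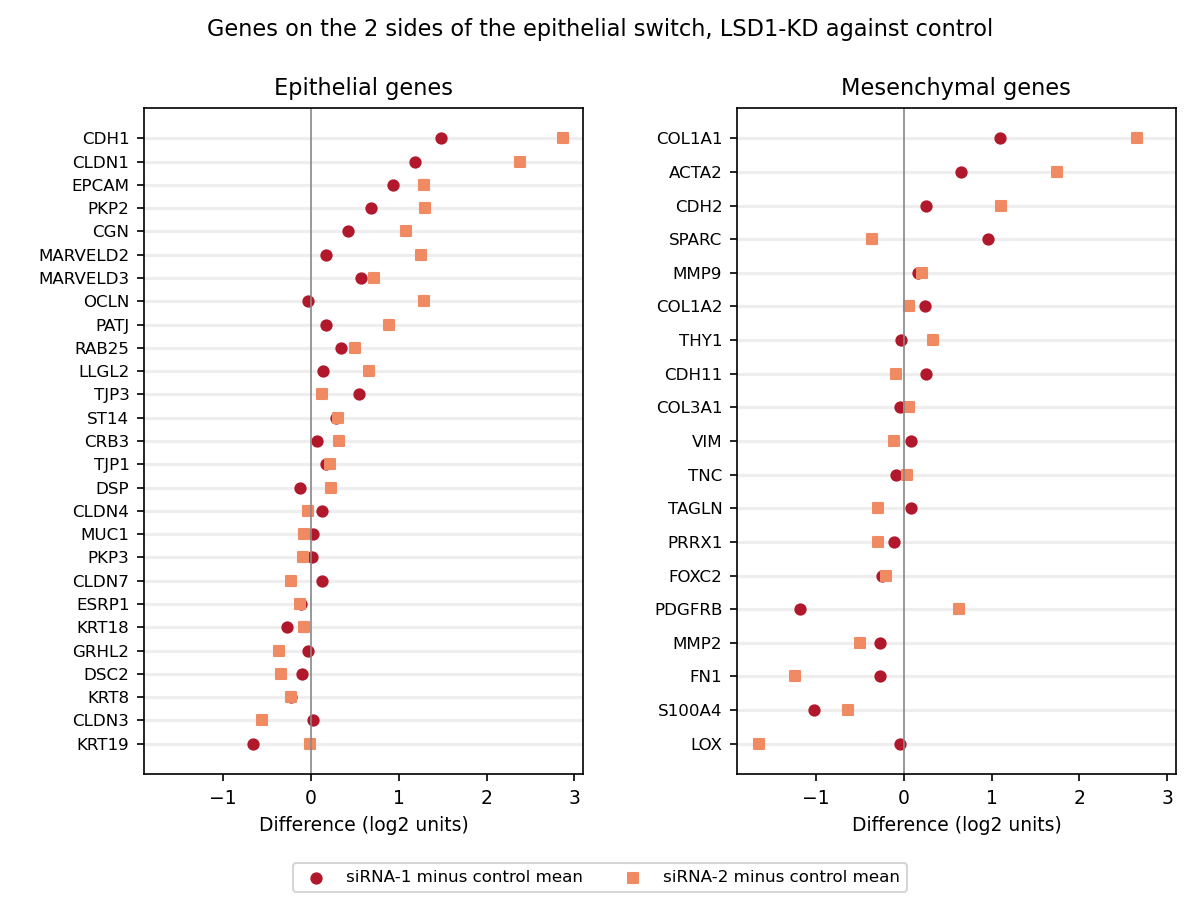
Differences from the control mean in log2 units (horizontal axis) with siRNA-1 (red circles) and siRNA-2 (orange squares) for 27 epithelial genes (left) and 19 mesenchymal genes (right), ordered by the mean of both. CDH1 stands at the top of the epithelial genes (1.48 and 2.88) and COL1A1 at the top of the mesenchymal genes (1.10 and 2.65).

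Mesenchymal genes went both ways. Of 19 measured, 0 passed over all genes (limma; 4 had an unadjusted p under 0.05, against 14.5% of all genes). On both LSD1-KD arrays 4 were higher and 5 lower (23.5% and 25.2% of all genes), and the median was -0.02. With siRNA-2 alone 4 rose and 3 fell (13.0% and 9.83% of all genes). CDH2, the gene of N-cadherin, had values of 0.12 and 0.98 on the LSD1-KD arrays, against -0.14 and -0.12 on the control arrays. It rose with siRNA-2 (1.11, adjusted p = 0.0175) and read 0.25 with siRNA-1. VIM, the gene of vimentin, overlapped between groups (-0.02 ± 0.12). COL1A1, a fibrillar collagen, had a difference of 1.88 ± 0.54 through 1 probe set, while its other 4 ran from -0.18 to 0.44. The mean of the COL1A1 probe sets was 0.42. ACTA2, smooth muscle actin, had a difference of 1.20 ± 0.38, while its other 2 probe sets read -0.05 and -0.04 and the mean of all was 0.37. S100A4, a calcium-binding protein of motile cells, had a difference of -0.83 ± 0.17 and FOXC2, a forkhead factor, of -0.23 ± 0.10. None of these passed over both LSD1-KD arrays. COL1A1 (2.65) and ACTA2 (1.75) are among those that rose with siRNA-2, and S100A4 (-0.63) is among those that fell. With siRNA-1 they read 1.10, 0.65 and -1.025.

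Of 11 measured genes of the LSD1-CoREST complex, which serves the SNAG factors, 0 passed over all genes (limma; 5 had an unadjusted p under 0.05, against 14.5% of all genes). On both LSD1-KD arrays 2 were higher and 4 lower (23.5% and 25.2% of all genes), with a median of -0.01, and with siRNA-2 2 rose and 3 fell (13.0% and 9.83% of all genes). KDM1A, the knocked-down gene, is one of those that fell. GSE1 had a difference of -0.71 ± 0.13, RCOR2 of -0.32 ± 0.10 and RCOR3 of 0.38 ± 0.13, and none passed (limma adjusted p from 0.202 to 0.326). GSE1 is also among those that fell with siRNA-2 (-0.59), and it read -0.82 with siRNA-1. Of 11 other corepressors 0 passed over all genes (1 had an unadjusted p under 0.05), 4 were higher and 2 lower, with a median of 0.09, and with siRNA-2 2 rose and 1 fell. CTBP2, the partner of ZEB proteins, had a difference of -0.33 ± 0.14 through 1 probe set, while its other 5 overlapped between groups and the mean of all was -0.04. AJUBA, a LIM protein that binds the SNAG domain, had a difference of 0.39 ± 0.11 and rose with siRNA-2 (0.46, adjusted p = 0.0436). The histone methyltransferases SUV39H1 (-0.28) and EHMT2 (0.24) are used by Snail, and the mean of the EHMT2 probe sets was 0.03. With siRNA-2, SUV39H1 fell by 0.45 (adjusted p = 0.0453). The 5 measured SNAG relatives had 0 higher and 2 lower and ran from -0.15 to 0.05, with SCRT1 at 0.02 and OVOL3 at 0.05.

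Signals and partners around the repressors gave values on both sides. Of 9 Twist partners 0 were higher and 5 lower on both LSD1-KD arrays (23.5% and 25.2% of all genes), with a median of -0.15, and with siRNA-2 0 rose and 2 fell. All 4 Id genes, which encode inhibitors of helix-loop-helix pairing, were among the lower ones: ID1 (-0.15), ID2 (-0.18), ID3 (-0.40) and ID4 (-0.38). With siRNA-2, ID3 fell by 0.69 (limma adjusted p = 0.0254). When probe sets with the suffixes _x_at or _s_at were dropped, ID4 turned to 0.15, and with the mean of its probe sets it was -0.00. Of 17 TGF-beta pathway genes 4 were higher and 4 lower on both LSD1-KD arrays, with a median of -0.06, and with siRNA-2 4 rose and 3 fell (13.0% and 9.83% of all genes). TGFB1, the ligand that induces Snail and ZEB genes, had values of -0.30 and -0.72 on the LSD1-KD arrays, against 0.30 and 0.41 on the control arrays, and its difference of -0.87 ± 0.18 did not pass (adjusted p = 0.219). With siRNA-2, TGFB1 fell by 1.08 (adjusted p = 0.0208). The difference of TGFB1 was -0.47 with the mean of its probe sets and -0.07 without suffixed ones. SKIL (0.62), SMURF2 (0.39) and HMGA2 (0.42) were higher on both LSD1-KD arrays and none passed, while SKIL (adjusted p = 0.0210) and SMURF2 (adjusted p = 0.0364) rose with siRNA-2. With the mean of probe sets SKIL was 0.29, and SMURF2 and HMGA2 turned to -0.07 and -0.04. Another bright SMURF2 probe set was lower on both LSD1-KD arrays at -0.41.

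Of 14 measured genes for turnover of the Snail proteins, 2 were higher and 3 lower on both LSD1-KD arrays (23.5% and 25.2% of all genes), with a median of 0.02, and with siRNA-2 5 rose and 2 fell (13.0% and 9.83% of all genes). FBXO45, an F-box protein that targets these repressors, had values of -0.33 and -0.92 on the LSD1-KD arrays, against 0.34 and 0.33 on the control arrays, a difference of -0.97 ± 0.22 (limma adjusted p = 0.246). With siRNA-2, FBXO45 fell by 1.26 (adjusted p = 0.0173) and FBXL5 rose by 0.55 (adjusted p = 0.0328). FBXL14 (-0.19), FBXL5 (0.38) and CTDSPL (0.28) did not pass over both LSD1-KD arrays. FBXL5 was 0.13 without suffixed probe sets and CTDSPL 0.05 with the mean of its probe sets. Of 6 measured neuroendocrine genes of INSM1, 2 were higher and 1 lower, with a median of -0.03, and CHGB, the gene of secretogranin 1, had a difference of 0.86 ± 0.20 while SYP had one of 0.14. CHGB rose with siRNA-2 (1.11) and read 0.61 with siRNA-1. INS of the same list fell with siRNA-2 (-0.41), and so did MYB of the blood genes below (-0.54). INS and MYB are dim and were chosen after their values were seen. Of the 6 neuroendocrine genes, 2 were not dim. Of 14 measured blood genes of GFI1 and GFI1B, 1 was higher and 5 lower, with a median of -0.12, and MPO (-0.29), CEBPE (-0.29) and MEIS1 (0.21) were its named genes with ID2. With the mean of probe sets MPO was -0.08 and MEIS1 0.11. In these 3 lists 0 genes passed over all genes, where 0.00506% of all genes did. In the same order 1, 2 and 0 had an unadjusted p under 0.05 in limma, against 14.5% of all genes.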

How the data were processed

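HepG2 messenger RNA was measured on 4 HG-U133 Plus 2.0 arrays. The authors made the deposited values with RMA, per the submitters' processing notes, and they are taken here to be log2, the base RMA gives. Neither its version nor the set of arrays normalized with one another is stated in the labels used here. In each of 54675 probe sets the median of the 4 arrays is 0 (largest deviation 5e-07), so levels are gone. An array gives no depth, and the number of arrays limits the precision. Groups came from the sample titles.

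Gene names came from the annotation table of the platform, and symbols were brought up to date with RefSeq (GRCh38.p14). A single symbol was given for 41097 probe sets and several for 1801, while 11777 stayed unnamed here. The 62 control probe sets were left out, which left 19775 genes. Each gene was read by its brightest probe set, then one without a letter suffix, then by identifier. Brightness was the class of single-precision step (8 or above, 4 to 8, below 4), used in place of the mean level of the design, which the centring removed.

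The tests used limma 3.58.1 under R 4.3.3 (two-sided, Benjamini-Hochberg over all genes, threshold 0.05), errors being its standard errors. Single siRNAs were tested in a limma fit with 3 groups, where the lone array takes its spread from the 2 controls. The fits were tested on simulated data. An exact permutation test of 2 arrays against 2 has too few regroupings and was not used. Of each gene list, the up to 4 genes with the smallest p that were not dim were named, and KDM1A, CDH1, CDH2 and VIM in any case. The members and lists were chosen with earlier results of these data known. No set test was run.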

Additional observations from a re-analysis of the deposited data

Results flagged for a closer look

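In the limma comparison of siRNA-2 minus siRNA-1, GFI1 and 14 list genes passed, where 5.19% of all genes did. The repressors and list genes tested numbered 142. Each arm is 1 array and the spread comes from the 2 controls, so a pass describes these arrays and not the siRNAs. The siRNA-2 array also had the wider spread over probe sets (SD 0.384, against 0.197 for the siRNA-1 array), and its part in these values was not tested. For 11 genes the siRNA-2 value was the higher: GFI1 1.64, CDH1 1.40, CLDN1 1.19, OCLN 1.32, MARVELD2 1.07, CDH2 0.86, ACTA2 1.09, COL1A1 1.56, PDGFRB 1.80, SIN3A 0.82 and LATS2 1.01. For 4 it was the lower: FN1 -0.97, SPARC -1.32, LOX -1.61 and TGFBR3 -2.37. Of these, GFI1, PDGFRB, SIN3A, LATS2 and SPARC had the siRNAs on opposite sides of both controls, as had 22.0% of all genes. GFI1 stood at 1.06 for siRNA-2 and -0.58 for siRNA-1. In the same order PDGFRB stood at 0.63 and -1.18, SIN3A at 0.60 and -0.22, LATS2 at 0.75 and -0.26, and SPARC at -0.36 and 0.96. The genes not named in the comparisons above were chosen after their values were seen.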

How the results depend on the processing

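With all 4 arrays, 0 of 10 repressor genes passed under each alternative, and leaving out 1 array gave 0 to 2. The count over all genes was 1 in the reported setting. It was 0 with the mean of all probe sets, without dim genes, with robust moderation, with the replicate block and with every probe set as a feature, 7 with array weights, and 0 to 4509 when 1 array was left out (4509 without the siRNA-1 array). Genes of the lists that passed numbered 0, with 1 under array weights (KDM1A, adjusted p = 0.0404) and 0 to 44 when 1 array was left out. In the knockdown the replicate numbers mark the siRNA, and the labels do not say that same-numbered arrays belong together. The correlation of same-numbered deviations was 0.035 over genes. It cannot settle pairing, since the deviation between the LSD1-KD arrays includes the difference between the siRNAs. Under the replicate block 0 repressors and 0 list genes passed. Between the siRNAs 1 repressor passed, 0 with every probe set as a feature and 3 without dim genes (GFI1B and TWIST2 joined GFI1). Repressors higher on both LSD1-KD arrays numbered 2, 1 with the mean of probe sets, 1 without dim genes and 2 to 4 when 1 array was left out. Those lower numbered 3, and 4 to 6 when 1 array was left out. Leaving out 1 array leaves less to separate, so the higher and lower counts can then stay or rise but not drop. The matching share of all genes was not counted, so no conclusion is drawn from the rise. Where an LSD1-KD array was left out, only the other LSD1-KD array was compared with the controls. The epithelial median was 0.20, 0.0794 with the mean of probe sets and 0.13 to 0.23 when 1 array was left out. The mesenchymal median of -0.02 turned to 0.0073 both when suffixed (_x_at, _s_at) probe sets and when dim genes were dropped, and ran from -0.0878 to 0.019 when 1 array was left out. With the mean of probe sets ZEB1 turned to -0.10, OVOL1 to -0.20, HMGA2 to -0.04 and SMURF2 to -0.071, and without suffixed probe sets ID4 turned to 0.15. When 1 array was left out SNAI1 ran from -0.21 to 0.005, GFI1 from -0.58 to 1.06, GFI1B from -0.27 to 0.28, OVOL1 from -0.066 to 0.078, OVOL3 from -0.12 to 0.21, SCRT1 from -0.072 to 0.11 and VIM from -0.11 to 0.082. The cause of each turn was not tested.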
